A study of Mus musculus with 12 samples.

Results

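The effect of a completed pregnancy on the mouse heart was averaged over a Western and a control diet, to find the genes that moved the same way on both. All 12 libraries of the series entered the comparison, 6 postpartum and 6 nonpregnant, and 15476 of 49315 genes had enough counts to be tested. For each gene, the mean log2 level of the Western diet and control diet nonpregnant groups was subtracted from that of the Western diet and control diet postpartum groups, so that each diet weighed the same.

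In pregnancy the heart pumps a larger blood volume and its muscle grows, a reversible enlargement that is undone after birth. Remodelling of this kind draws on heart muscle cells, which make the contractile proteins, on fibroblasts, which lay down collagen and other matrix, and on resident immune and endothelial cells. The natriuretic peptides, made by stretched heart muscle, and the matricellular proteins, which are scarce in the resting adult heart and return when tissue is rebuilt, are common readouts of such change. Heart muscle also carries its own circadian clock, a loop of transcription factors that sets the daily course of many metabolic and contractile genes.

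The mice were wild-type C57BL/6J females aged 27 to 29 weeks. The Western diet postpartum group ate a diet with 45% of its energy as fat and 17% as sucrose for 15 weeks, was then bred, and gave hearts on day 1 after delivery. The Western diet nonpregnant group ate the same diet and was age-matched and not bred. The control diet postpartum and control diet nonpregnant groups differed from these only in the diet, which had 10% of its energy as fat. Each group had 3 libraries, and the labels name no transgene or drug. Whether the libraries within a group came from separate animals is not said in the labels, so the p-values measure the spread between these libraries. The question the series states is whether metabolic syndrome leads the heart to remodel harmfully during pregnancy.

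Total counts ran from 22912896 to 29492416 in the postpartum libraries and from 22754591 to 28398335 in the nonpregnant ones. The muscle markers Myh6, Tnnt2, Ttn and Pln were high throughout, with Myh6 at 29120 to 36711 CPM (a gene's counts scaled for the size and composition of its library). On the first principal component, which held 17.7% of the variance, the 6 postpartum libraries lay between -23.3 and -1.97 and the 6 nonpregnant ones between 4.13 and 23.8. Replicate 3 of the control diet postpartum group carried genes of fat tissue, with the brown fat protein Ucp1 at 73.1 CPM there, while none of the other 11 libraries passed 0.545 CPM. The titles number the postpartum libraries before the nonpregnant ones, and the labels give no hour of tissue collection, so anything that went with that order cannot be told apart from pregnancy. Since heart tissue of mixed cells was measured, fewer cells of a type and less RNA per cell cannot be told apart either.

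The levels of 276 genes differed between postpartum and nonpregnant hearts on average over the diets (1.78% of those tested). Of these, 160 rose (1.03%) and 116 fell (0.75%), by edgeR's quasi-likelihood test with Benjamini-Hochberg adjustment over all genes at 0.05. The changes were mostly small: the median size was 0.37 on the log2 scale, the range 0.16 to 1.70, and 22 genes moved by 2-fold or more. In 275 of the 276 genes the postpartum log2 fold change had the same sign on both diets, against 57.6% of all genes tested. The test of the average favours genes with both diets on one side, so this count is a description. In 124 of the 276 genes all 6 postpartum libraries lay beyond all 6 nonpregnant ones, as they did in 1.53% of all genes tested. With 1 library left out the count of calls ran from 52, without replicate 1 of the Western diet postpartum group, to 567, without replicate 2 of that group, and 45 genes, 26 rising and 19 falling, stayed called whichever library was left out. Without replicate 3 of the control diet postpartum group, the library with fat tissue genes, 93 genes were called, 52 rising and 41 falling, and 90 of them were among the 276.

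A stricter question is whether a gene changed on each diet taken alone. For this the larger of a gene's 2 p-values was taken, one from each diet, and genes of opposite signs could not be called. By that p edgeR called 0 genes after adjustment (smallest adjusted p = 0.696), where 367 genes (2.37%) had that p under 0.05 before adjustment. The same test called 2 genes with DESeq2 and 0 with limma-voom. Of the 276 genes, 187 had an unadjusted p under 0.05 on each diet. Taken alone, the Western diet gave 91 calls (0.588%) and the control diet 37 (0.239%), and 2 genes were on both lists: Tnc, a matricellular protein, and Rnf166, a ubiquitin ligase. These counts moved with single libraries. When 1 was left out, the Western diet gave 0 without replicate 3 of the Western diet postpartum group or any 1 replicate of the Western diet nonpregnant group and up to 472 without replicate 2 of the Western diet postpartum group. The control diet gave 0 without replicate 1 of the control diet postpartum group or replicate 2 of the control diet nonpregnant group and up to 205 without replicate 1 of the control diet nonpregnant group. The average called 65 of the 91 Western diet genes and 35 of the 37 control diet genes, together with 178 genes called on neither diet alone.

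**Figure D1:**
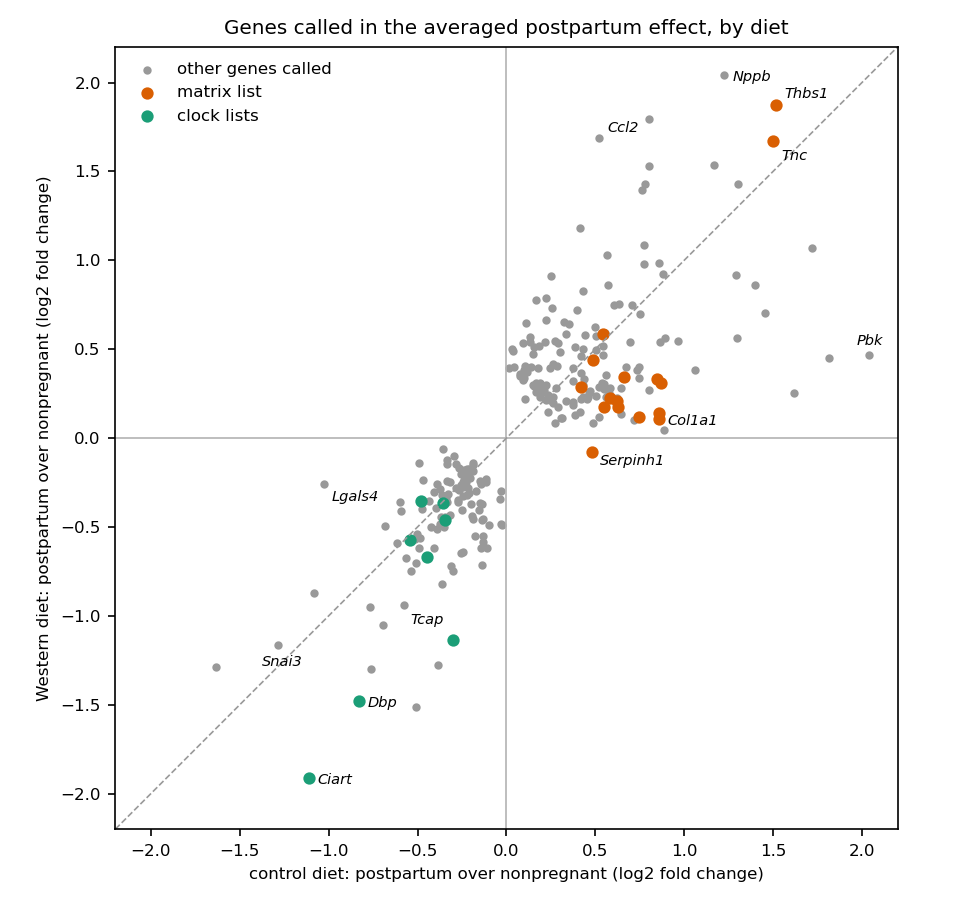
Each point is 1 of the 276 genes called in the averaged effect; the x axis gives its postpartum over nonpregnant log2 fold change on the control diet and the y axis that on the Western diet, with equal values on the dashed line. All but 1 point, Serpinh1, lie in the quadrants of equal sign; matrix genes (orange) lie mostly below the line and clock genes (green) in the lower left quadrant.

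The extracellular matrix was the list with the most genes called. Of the list's 51 matrix genes tested, 16 rose and 0 fell, against 1.03% rising over all genes. The list's median log2 fold change was 0.32, against -0.0011 over all genes. Fbln1, a matrix glycoprotein that is not on this list, fell (log2 fold change -0.32, edgeR adjusted p = 0.0326). Thbs1 (thrombospondin 1), a matricellular glycoprotein that can release active TGF-beta, had the largest change of all genes called. It stood at 17.3, 15.7 and 11.2 CPM in Western diet postpartum hearts, against 4.21, 3.26 and 4.58 CPM in Western diet nonpregnant hearts. In control diet postpartum hearts it stood at 23.4, 10.4 and 9.97 CPM, against 5.61, 4.92 and 4.77 CPM in control diet nonpregnant hearts. The groups did not overlap on either diet, and Thbs1 was 3.24-fold higher postpartum (log2 fold change 1.70, SE 0.21, edgeR adjusted p = 0.00518).

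Tnc (tenascin C), which appears in heart tissue that is being rebuilt, stood at 2.49, 4.55 and 3.77 CPM in Western diet postpartum hearts, against 1.12, 1.21 and 1.06 CPM in Western diet nonpregnant hearts. Its levels were 2.59, 2.91 and 4.68 CPM in control diet postpartum hearts, against 0.964, 1.39 and 1.27 CPM in control diet nonpregnant hearts. Every postpartum library was above every nonpregnant one (log2 fold change 1.59, SE 0.19, edgeR adjusted p = 0.00518), and the log2 fold change was 1.67 on the Western and 1.501 on the control diet. Thbs1 and Tnc were the matrix genes with the largest change, and with Eln they were the 3 of the 16 whose log2 fold change was larger on the Western than on the control diet.

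The other matrix genes that rose were fibrillar collagens, their processing enzymes and the proteins around them. Of those named next, Adamts2, Eln, Fn1, Sparc, Loxl2, Vcan, Col6a3 and Col5a1 were picked after their values were seen. Col5a2, a chain of the type V collagen that starts new fibrils, stood at 31.7, 34.1 and 31.2 CPM in Western diet postpartum hearts, against 21.4, 27.99 and 27.1 CPM in Western diet nonpregnant hearts. In control diet postpartum hearts it stood at 41.5, 35.3 and 40.8 CPM, against 27.4, 26.9 and 19.9 CPM in control diet nonpregnant hearts. All 6 postpartum values were above all 6 nonpregnant ones (log2 fold change 0.50, SE 0.09, edgeR adjusted p = 0.0176). Loxl1, which cross-links elastin, rose by 0.35 on the log2 scale, and Adamts2, which trims procollagen, rose by 0.36 (edgeR adjusted p = 0.0111 and 0.0176). Eln (elastin) rose by 0.57, Fn1 (fibronectin) by 0.46, Sparc, a collagen-binding protein, by 0.41 and Postn (periostin) by 0.59. The cross-linking enzyme Loxl2 rose by 0.59, the proteoglycan Vcan by 0.41 and the collagen chains Col6a3 and Col5a1 by 0.50 and 0.40. Fstl1, a secreted glycoprotein outside the list that heart fibroblasts and muscle release under stress, rose by 0.43 (edgeR adjusted p = 0.0120), and its Western and control diet values were 0.31 and 0.55.

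Most of the matrix rise came with a larger fold change on the control diet. The list's median log2 fold change was 0.09 on the Western and 0.48 on the control diet, and 13 of the 16 genes that rose had the larger change on the control diet. Col1a1, the major chain of type I collagen, stood at 78.3, 100.4 and 74.0 CPM in Western diet postpartum hearts, against 70.6, 87.3 and 76.6 CPM in Western diet nonpregnant hearts. Its control diet levels were 129, 99.8 and 140.4 CPM in postpartum hearts, against 78.5, 70.8 and 53.6 CPM in nonpregnant hearts. The groups overlapped on the Western diet and were apart on the control diet, with log2 fold changes of 0.11 and 0.86 and an average of 0.48 (edgeR adjusted p = 0.0417). Col3a1, its type III partner, had values of 0.00 on the Western and 1.30 on the control diet and an average that missed the threshold (0.65, edgeR adjusted p = 0.0749). The difference between the diets had an unadjusted edgeR p under 0.05 in 8 of the 16 genes. That level was reached by 79 of the 276 genes called and by 1390 of all 15476 tested. None of the 16 passed after adjustment over all genes (smallest edgeR adjusted p = 0.234). With any 1 library left out, 5 of the 16 stayed called, which were Thbs1, Tnc, Loxl1, Col5a2 and Adamts2. The list's count of risers ran from 5, without replicate 1 of the Western diet postpartum group, to 25, without replicate 1 of the control diet nonpregnant group, and 0 fell in any of these fits. DESeq2 called 23 risers and limma-voom 17, with 0 falling in both.

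**Figure D2:**
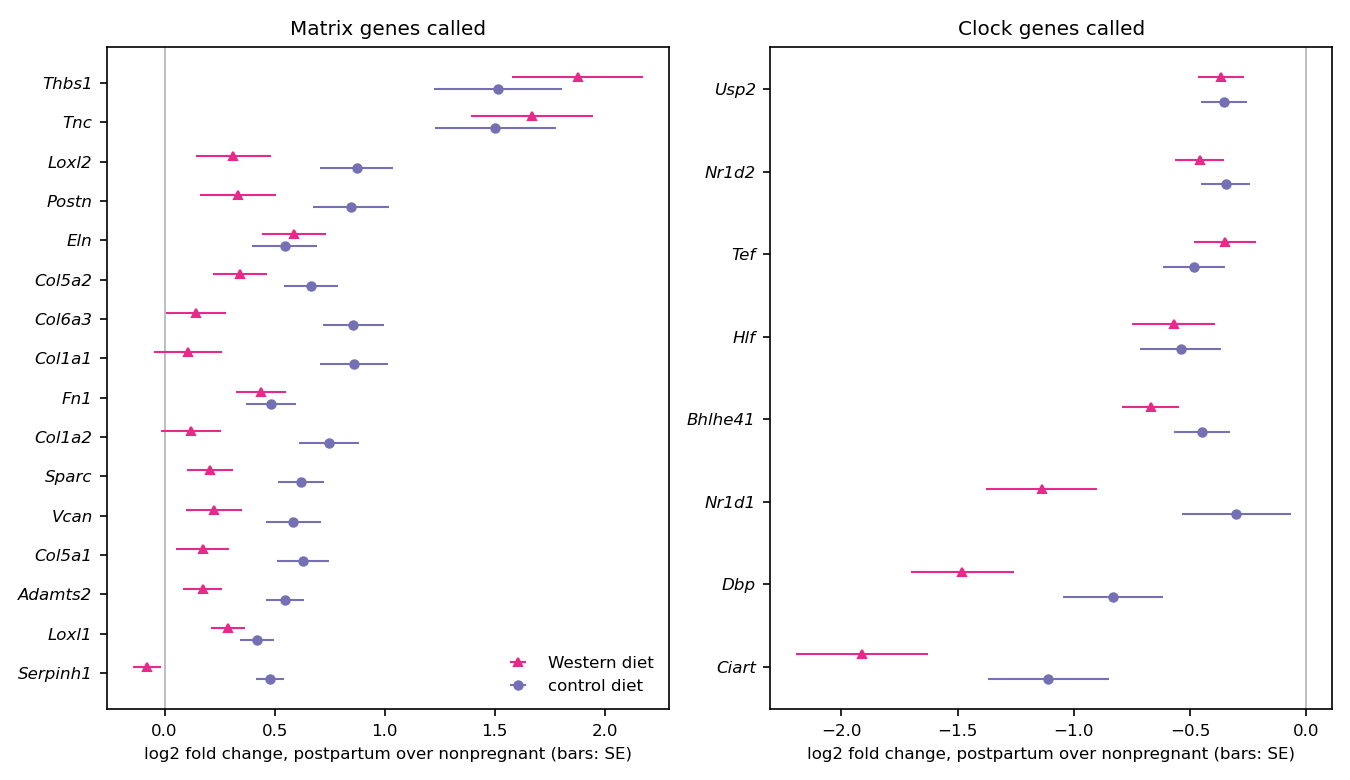
Postpartum over nonpregnant log2 fold changes (x axis) of the matrix genes called (left) and the clock genes called (right), with the Western diet as triangles, the control diet as circles and bars of 1 SE. Thbs1 and Tnc lie above 1.4 on both diets, most other matrix genes lie further right on the control diet, and the 8 clock genes lie below 0 on both.

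Several of the 15 rising genes with the smallest p belonged to none of the lists and changed by small amounts. Stbd1, which tethers glycogen to membranes, had the smallest p of the comparison. It stood at 12.3, 12.4 and 11.1 CPM in Western diet postpartum hearts, against 9.28, 9.66 and 8.59 CPM in Western diet nonpregnant hearts, and at 17.9, 15.4 and 16.0 CPM in control diet postpartum hearts, against 9.78, 8.95 and 10.9 CPM in control diet nonpregnant hearts. The groups did not overlap (log2 fold change 0.56, SE 0.07, edgeR adjusted p = 0.00518). S100a11, a calcium-binding partner of annexins, stood at 27.4, 27.4 and 27.4 CPM in Western diet postpartum hearts, against 22.97, 22.5 and 24.5 CPM in Western diet nonpregnant hearts. In control diet postpartum hearts it stood at 27.2, 27.1 and 27.7 CPM, against 20.5, 20.4 and 19.8 CPM in control diet nonpregnant hearts. Its 6 postpartum libraries fell within a narrow band above the nonpregnant ones (log2 fold change 0.33, SE 0.04, edgeR adjusted p = 0.00518).

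Anxa2 and S100a10, which form a complex at the plasma membrane, rose by 0.32 and 0.34 on the log2 scale (edgeR adjusted p = 0.01004 and 0.0102). The actin-binding proteins Dbn1 (drebrin) and Capg rose by 0.46 and 0.43, and Cltb, a clathrin light chain, rose by 0.24 (edgeR adjusted p = 0.01004, 0.0120 and 0.0120). In each of these 5 genes the 6 postpartum libraries lay above the 6 nonpregnant ones. No overlap, in either direction, was seen in 124 of the 276 genes called and in 1.53% of all genes tested. The 5 were named for their small p on these same libraries, so this count is a description. Other genes were picked after their values were seen: the actin-severing Cfl1 rose by 0.26, and the beta-tubulins Tubb2a and Tubb6 by 0.41 and 0.40. Tubulin genes have near-identical copies, so their counts may be shared between copies. C1qtnf6, a secreted relative of C1q, was also picked in this way and rose by 0.62 (edgeR adjusted p = 0.0126).

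Of 21 genes of the fetal and hypertrophic programme tested, 2 rose and 1 fell, with a median log2 fold change of 0.25, against 1.03% rising and 0.75% falling over all genes. With 1 library left out the count of risers ran from 0, without replicate 1 of the Western diet postpartum group or replicate 2 of the control diet nonpregnant group, to 5, without replicate 2 of the Western diet postpartum group. That of fallers was 0 without replicate 1 of the Western diet postpartum group or replicate 3 of the Western diet nonpregnant group. Nppb, the precursor of B-type natriuretic peptide, stood at 622, 129.8 and 406 CPM in Western diet postpartum hearts, against 85.1, 67.6 and 128 CPM in Western diet nonpregnant hearts. On the control diet it stood at 166, 288 and 297 CPM in postpartum hearts, against 147, 101 and 72.1 CPM in nonpregnant hearts. The spread was wide. The groups were apart on each diet by a small margin, and the lowest postpartum library, replicate 2 of the Western diet, lay below the highest control diet nonpregnant one. The average effect was a 3.10-fold rise (log2 fold change 1.63, SE 0.31, edgeR adjusted p = 0.0229). The call was lost without replicate 3 of the control diet postpartum group, replicate 1 of the Western diet postpartum group, replicates 2 or 3 of the control diet nonpregnant group, or replicate 2 of the Western diet nonpregnant group, with an edgeR adjusted p of at most 0.0643. Nppa, the A-type precursor, had a log2 fold change of 0.36 that missed the threshold (edgeR adjusted p = 0.200), as did the skeletal actin Acta1 (0.36, edgeR adjusted p = 0.535). Rcan1, an inhibitor and target of calcineurin, rose by 0.56 (edgeR adjusted p = 0.0190).

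Myh7, the slow myosin heavy chain that diseased mouse hearts raise, fell. It stood at 386, 424 and 404 CPM in Western diet postpartum hearts, against 462, 423 and 457 CPM in Western diet nonpregnant hearts, and at 372, 383 and 400.4 CPM in control diet postpartum hearts, against 506, 463 and 485 CPM in control diet nonpregnant hearts. The groups were apart on the control diet and overlapped on the Western diet (log2 fold change -0.24, SE 0.04, edgeR adjusted p = 0.0187), and the call was lost without replicate 1 of the Western diet postpartum or replicate 3 of the Western diet nonpregnant group (edgeR adjusted p of at most 0.0596). Its adult partner Myh6, a close paralog on which some reads could also map, had a log2 fold change of 0.01 (edgeR adjusted p = 0.965).

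Among 28 genes of the adult sarcomere and calcium handling, 0 rose and 2 fell, against 0.75% falling over all genes. Their median log2 fold change was -0.03, and the count of fallers ran from 1 to 3 with 1 library left out. Tcap (telethonin), the titin cap at the Z-disc, stood at 878, 912 and 871 CPM in Western diet postpartum hearts, against 1715, 1865 and 1526 CPM in Western diet nonpregnant hearts. Its control diet postpartum levels were 1144, 1484 and 1054 CPM, against 1392, 2078 and 2027 CPM in control diet nonpregnant hearts. Western diet groups were well apart, and 1 control diet postpartum library lay above the lowest nonpregnant one (log2 fold change -0.76, SE 0.10, edgeR adjusted p = 0.00625). Myl2, the ventricular light chain, fell by 0.24 on the log2 scale to a mean of 5698 CPM in postpartum hearts, against 6718 CPM in nonpregnant hearts (edgeR adjusted p = 0.0350). Other muscle genes, picked after their values were seen, moved in both directions: Mybpc2, Tpm2, Tpm4 and Myl1, forms of contractile proteins found outside adult heart muscle, rose by 0.68, 0.72, 0.43 and 0.35, the stretch-linked Ankrd23 rose by 0.69 and the slow skeletal troponin Tnnt1 fell by 0.55.

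Fgf16, Ccbe1, Foxo3 and Rnf207 were among the 15 falling genes with the smallest p. Fgf16, a growth factor made by heart muscle, stood at 10.9, 11.95 and 10.8 CPM in Western diet postpartum hearts, against 21.4, 19.3 and 18.7 CPM in Western diet nonpregnant hearts. On the control diet it stood at 17.9, 22.4 and 15.8 CPM in postpartum hearts, against 22.5, 25.6 and 24.1 CPM in nonpregnant hearts. Groups were apart on each diet, by the smallest margin on the control diet (log2 fold change -0.59, SE 0.08, edgeR adjusted p = 0.00625). Ccbe1, needed for lymphatic vessel growth, fell by 0.60, and Foxo3, a transcription factor that drives muscle atrophy genes, fell by 0.43 (edgeR adjusted p = 0.0102 and 0.0111). Rnf207, a ubiquitin ligase that regulates a repolarising potassium channel, fell by 0.33 (edgeR adjusted p = 0.0160). Of 25 ion channel and gap junction genes, 0 rose and Kcnj5, a subunit of the acetylcholine-activated potassium channel, fell by 0.32 (edgeR adjusted p = 0.0457). Fallers of that list ran from 0 to 3 with 1 library left out, and over all genes 0.75% fell.

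Rnf166, the ubiquitin ligase called on each diet, stood at 35.5, 36.6 and 35.3 CPM in Western diet postpartum hearts, against 45.4, 47.9 and 47.9 CPM in Western diet nonpregnant hearts. Its control diet postpartum levels were 34.7, 38.7 and 34.1 CPM, against 42.2, 48.2 and 50.9 CPM in control diet nonpregnant hearts. The libraries did not overlap, and the log2 fold change was -0.40 on the Western and -0.40 on the control diet, with a mean of -0.40 (SE 0.05, edgeR adjusted p = 0.00625). Aqp1, the water channel of capillary endothelium, was picked after its values were seen and fell by 0.62, with all 6 postpartum libraries below all 6 nonpregnant ones (edgeR adjusted p = 0.0176). Plxnb1, a semaphorin receptor, fell by 0.52, Cth, which makes cysteine and hydrogen sulphide, by 0.87, and Carns1, the carnosine synthase, by 0.44 (edgeR adjusted p = 0.0169, 0.0176 and 0.0176).

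**Figure D3:**
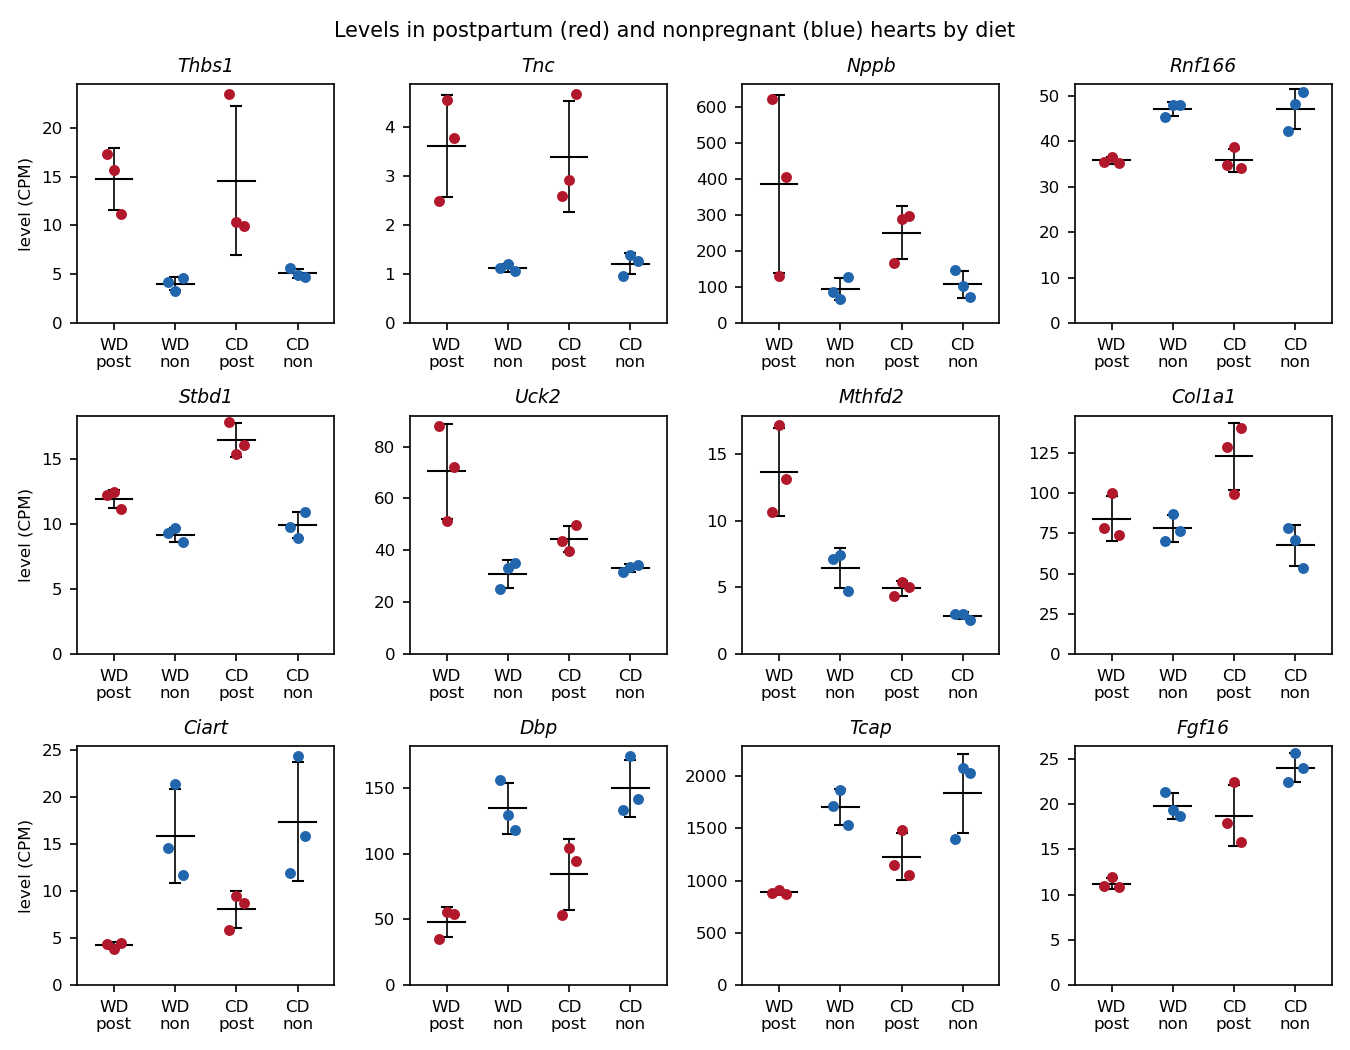
Levels (CPM, y axes) of 12 genes in Western diet (WD) and control diet (CD) hearts, postpartum (post, red) and nonpregnant (non, blue); points are libraries, horizontal lines means and bars 1 SD (n = 3). The postpartum points lie above the nonpregnant ones on both diets for Thbs1, Tnc, Stbd1 and Uck2 and below them for Rnf166, Ciart and Dbp, while Col1a1 is apart on the control diet alone.

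The falling side was led by genes of the circadian clock. In the core loop, CLOCK and its partner ARNTL activate genes from E-box motifs, and their targets, among them Ciart, Bhlhe41 and the REV-ERB receptors Nr1d1 and Nr1d2, in turn repress the loop, while output factors such as Dbp, Tef and Hlf pass the rhythm on. Of 35 clock loop and output genes tested, 0 rose and 8 fell, against 0.75% falling over all genes. The median log2 fold change was -0.24 over the 17 loop genes and -0.03 over the 18 output genes, and 15 of the 35 had a positive value. The fallers were Ciart, Bhlhe41, Nr1d2 and Nr1d1 in the loop and Dbp, Usp2, Hlf and Tef among the outputs. Start sites of 4 of the 8 are shown because E-boxes of the letters CACGTG, capitalised here, are the element through which the loop is known to act. They are the 3 genes with a match and Dbp, 1 of the 5 without. The windows are RefSeq's, build GRCm38.p6, 300 bases from 250 before the start of transcription, on each gene's own strand:
Ciart, chr3:95882179-95882478, minus strand: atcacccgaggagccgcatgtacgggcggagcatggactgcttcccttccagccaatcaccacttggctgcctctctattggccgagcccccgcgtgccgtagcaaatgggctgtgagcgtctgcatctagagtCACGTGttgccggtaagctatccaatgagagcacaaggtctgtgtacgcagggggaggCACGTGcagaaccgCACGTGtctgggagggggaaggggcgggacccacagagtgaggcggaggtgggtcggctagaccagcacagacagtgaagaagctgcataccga
Bhlhe41, chr6:145865371-145865670, minus strand: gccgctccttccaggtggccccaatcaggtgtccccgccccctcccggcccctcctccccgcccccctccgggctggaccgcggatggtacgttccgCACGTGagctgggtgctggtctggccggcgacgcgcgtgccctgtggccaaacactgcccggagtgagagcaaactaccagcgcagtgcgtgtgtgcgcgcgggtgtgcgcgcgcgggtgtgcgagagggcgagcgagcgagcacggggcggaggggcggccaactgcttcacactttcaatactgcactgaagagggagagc
Tef, chr15:81802423-81802722, plus strand: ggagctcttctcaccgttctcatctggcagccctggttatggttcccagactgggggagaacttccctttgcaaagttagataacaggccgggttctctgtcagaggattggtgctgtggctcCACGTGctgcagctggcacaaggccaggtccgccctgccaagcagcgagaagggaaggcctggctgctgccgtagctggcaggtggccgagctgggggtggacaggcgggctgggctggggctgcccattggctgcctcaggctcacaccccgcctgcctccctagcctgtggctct
Dbp, chr7:45704997-45705296, plus strand: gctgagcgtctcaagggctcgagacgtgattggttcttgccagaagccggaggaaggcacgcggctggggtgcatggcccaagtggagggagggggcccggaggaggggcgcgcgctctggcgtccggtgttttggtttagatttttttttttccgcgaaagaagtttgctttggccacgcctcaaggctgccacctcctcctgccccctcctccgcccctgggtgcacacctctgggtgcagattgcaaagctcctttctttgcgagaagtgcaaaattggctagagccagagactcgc

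Ciart had 3 such motifs, starting 116, 58 and 44 bases before the start site, Bhlhe41 had 1 at 153 bases before it, and Tef had 1 at 127 bases before its first start and 1 at 138 bases before another. The windows of Dbp, Nr1d1, Nr1d2, Usp2 and Hlf held no match. The motif reads the same on both strands and does not overlap another motif searched. So 3 of the 8 genes had a match, against 8.09% of 27025 genes with a window, and 9 of the 30 clock list genes with a window had one. A match is only a description of these letters.

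Ciart, a repressor of CLOCK and ARNTL, fell the most. It stood at 4.37, 3.81 and 4.45 CPM in Western diet postpartum hearts, against 14.6, 21.4 and 11.7 CPM in Western diet nonpregnant hearts. In control diet postpartum hearts it stood at 5.86, 9.50 and 8.77 CPM, against 11.9, 24.3 and 15.8 CPM in control diet nonpregnant hearts. All 6 postpartum libraries lay below all 6 nonpregnant ones (log2 fold change -1.51, SE 0.19, edgeR adjusted p = 0.00591). Dbp stood at 35.2, 55.4 and 54.4 CPM in Western diet postpartum hearts, against 156, 129 and 119 CPM in Western diet nonpregnant hearts, and at 53.6, 105 and 94.8 CPM in control diet postpartum hearts, against 133, 175 and 142 CPM in control diet nonpregnant hearts. Its groups did not overlap either (log2 fold change -1.16, SE 0.15, edgeR adjusted p = 0.00625).

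Bhlhe41 fell by 0.56 (edgeR adjusted p = 0.0110), Nr1d2 by 0.40, Nr1d1 by 0.72, Hlf by 0.56, Tef by 0.42 and the deubiquitinase Usp2 by 0.36. In 6 of the 8 genes, that is all but Nr1d1 and Hlf, the postpartum and nonpregnant libraries did not overlap. That held in 124 of the 276 genes called and in 1.53% of all genes tested. The 8 were called on these same libraries, so this count is a description. In 7 of the 8 the fall was larger on the Western diet, with Tef the exception, and none of the 8 differed between the diets after adjustment (smallest unadjusted p = 0.0253, for Nr1d1). Of the activators, Arntl and Npas2 were picked after their values were seen. Their log2 fold changes were 0.85 and 0.67 and missed the threshold (edgeR adjusted p = 0.114 and 0.103). Per2 had a value of 0.06 on the Western and -0.58 on the control diet and an average of -0.26 (edgeR adjusted p = 0.330). Ciart, Bhlhe41 and Dbp stayed called with any 1 library left out, and the other 5 did not. With 1 library left out, the count of fallers ran from 3, without replicate 1 of the Western diet postpartum group or replicate 2 of the control diet nonpregnant group, to 9, without replicate 2 of either postpartum group. The count of risers ran from 0 to 2 in the same fits, with 2 without replicate 2 of either postpartum group. DESeq2 called 11 of the 35 as falling and 3 as rising, limma-voom 9 and 0. The hour of collection is not in the labels, and its part in these values was not tested.

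Few genes of glucose use and respiration were called. Of 31 glycolysis and glucose uptake genes, 1 rose and 1 fell, against 1.03% rising and 0.75% falling over all genes. Before adjustment, 9 of the 31 rose and 6 fell with an edgeR p under 0.05. Over all 15476 genes, 1405 rose and 1316 fell at that level. DESeq2 called 3 of the 31 as rising and 4 as falling, limma-voom 1 and 1. Sord, which oxidises sorbitol to fructose, rose by 0.24 (edgeR adjusted p = 0.0105). Pdk1, an inhibitory kinase of pyruvate dehydrogenase, rose by 0.22 and Pdp2, its activating phosphatase, fell by 0.39, while Pdk4 had 0.70 and missed the threshold (edgeR adjusted p = 0.0457, 0.0360 and 0.225). Of 37 nuclear-encoded respiratory chain genes edgeR called 0, as did DESeq2 and limma-voom, and 0 had an unadjusted p under 0.05.

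Uck2, which salvages uridine and cytidine, stood at 87.8, 51.1 and 72.3 CPM in Western diet postpartum hearts, against 24.9, 33.0 and 35.1 CPM in Western diet nonpregnant hearts. In control diet postpartum hearts it stood at 43.7, 39.6 and 49.6 CPM, against 31.6, 33.7 and 34.4 CPM in control diet nonpregnant hearts. Libraries did not overlap, and the change was larger on the Western diet (log2 fold change 0.80, SE 0.12, edgeR adjusted p = 0.01004), with an unadjusted p of 0.00532 for the difference that did not pass after adjustment (edgeR adjusted p = 0.408). Rrp12 and Nhp2, which build ribosomes, rose by 0.58 and 0.28. The ribosome biogenesis list also holds the salvage enzyme Uck2. With it, 3 of the 42 list genes rose with a list median of 0.09, against 1.03% rising over all genes. That count ran from 1 to 8 with 1 library left out, with 8 without replicate 2 of the Western diet postpartum group. Of 36 genes of the unfolded protein and integrated stress response, 4 rose and 0 fell: the mitochondrial folate enzyme Mthfd2 (0.93), the asparagine synthetase Asns (0.57), the amino acid transporter Slc7a5 (0.49) and the serine-making Phgdh (0.73). These 4 are enzymes and a carrier of amino acid and one-carbon supply, and no chaperone of the list was called. Risers of the list ran from 1 to 4 with 1 library left out, and the count was 1 without replicate 3 of the control diet postpartum group, replicate 1 of the Western diet postpartum group, replicate 1 of the Western diet nonpregnant group or replicates 2 or 3 of the control diet nonpregnant group. Mthfd2 stood at 10.6, 17.2 and 13.1 CPM in Western diet postpartum hearts, against 7.13, 7.46 and 4.75 CPM in Western diet nonpregnant hearts, and at 4.32, 5.43 and 5.03 CPM in control diet postpartum hearts, against 2.9996, 3.03 and 2.59 CPM in control diet nonpregnant hearts. It was higher postpartum on each diet without overlap, and higher on the Western diet in both states (log2 fold change 0.93, SE 0.14, edgeR adjusted p = 0.0105).

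Some macrophage and platelet markers rose, and 1 lymphocyte marker fell. Of 21 macrophage and monocyte markers, 4 rose and 0 fell, with a median log2 fold change of 0.27, against 1.03% rising over all genes. Their summed level was 436 to 511 CPM in Western diet postpartum hearts, against 370 to 452 CPM in Western diet nonpregnant hearts, and 462 to 512 CPM in control diet postpartum hearts, against 350 to 426 CPM in control diet nonpregnant hearts. The chemokine Pf4, made by platelets and resident macrophages, rose by 0.41, the lysosomal Cd68 by 0.54 and the complement chains C1qa and C1qb by 0.32 and 0.29 (edgeR adjusted p = 0.0102, 0.0182, 0.0260 and 0.0312). The list's median was 0.17 on the Western and 0.35 on the control diet. Cd68 rose by 0.27 and 0.80 on these diets, C1qa by 0.12 and 0.52 and Pf4 by 0.25 and 0.58. Their differences between the diets did not pass after adjustment (edgeR adjusted p = 0.464, 0.427 and 0.475). Of the 4 risers, Pf4 alone stayed called with any 1 library left out. The list's count of risers ran from 1, without replicate 1 of the Western diet postpartum group or replicates 2 or 3 of the control diet nonpregnant group, to 6, without replicate 2 of the Western diet postpartum group. Among 5 platelet markers tested, Pf4 and the integrin Itgb3 (0.72) rose, and the summed level of the platelet list was 18.9 to 22.2 CPM in postpartum hearts on both diets, against 13.2 to 16.3 CPM in nonpregnant hearts. Of these sums Pf4, a member of both lists, made up a mean of 13.0 CPM in postpartum and 9.74 CPM in nonpregnant hearts. The call of Itgb3 held in 2 of the 12 fits with 1 library left out. The part of platelet or macrophage content in these values was not tested.

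The 11 lymphocyte markers tested had a median log2 fold change of -0.43, with -1.03 on the Western and -0.14 on the control diet. Of the 11, 0 rose and 1 fell, against 0.75% falling over all genes. That gene was Ltb (lymphotoxin beta), at 0.123, 0.263 and 0.385 CPM in Western diet postpartum hearts, against 0.773, 0.454 and 0.669 CPM in Western diet nonpregnant hearts, and at 0.102, 0.233 and 0.390 CPM in control diet postpartum hearts, against 0.893, 0.924 and 0.454 CPM in control diet nonpregnant hearts. The libraries did not overlap (log2 fold change -1.46, SE 0.33, edgeR adjusted p = 0.0445). Levels were, however, near the limit of a count of 0, which was 0.102 to 0.132 CPM. The call of Ltb held in 2 of the 12 fits with 1 library left out. DESeq2 called 0 of the lymphocyte markers and limma-voom 1. All 16 antigen presentation genes had a negative average, with a median of -0.43 (-0.77 on the Western and -0.11 on the control diet), and edgeR called 0 of them, with 7 under an unadjusted p of 0.05, while DESeq2 called 1 and limma-voom 0. At that unadjusted level 1316 of all 15476 genes fell. On the control diet 7 of the 16 antigen presentation genes had a positive value, and 9 of the 16 had the same sign on both diets. Between libraries of a group, the members' median deviation from the group mean had an SD of 0.40. Among 33 cytokine and acute inflammation genes, 4 rose and 0 fell with a median of 0.25: the monocyte chemokine Ccl2 (1.10), the osteopontin gene Spp1 (1.35), the TWEAK receptor Tnfrsf12a (1.10) and the transcription factor Stat3 (0.35). Over all genes 1.03% rose. The list's count of risers was 0 without replicate 3 of the control diet postpartum group, the library with fat tissue genes, and 1 to 4 when 1 of the other 11 libraries was left out. Of 16 complement genes, 3 rose, C1qa, C1qb and the anaphylatoxin receptor C5ar1 (0.50, edgeR adjusted p = 0.0229), and that count ran from 0 to 3 with 1 library left out.

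Of the fibroblast markers, those that rose were all matrix genes. Of 15 fibroblast markers, 3 rose, Postn, Col1a1 and Col1a2, and 1 fell, the matrix glycoprotein Fbln1 (-0.32, edgeR adjusted p = 0.0326), and with 1 library left out the count of risers ran from 0 to 5. The 9 fibroblast markers outside the matrix list had a median log2 fold change of 0.08, with 0 rising and Fbln1 falling. Their summed level was 1441 to 2021 CPM in postpartum hearts on both diets, against 1465 to 1891 CPM in nonpregnant hearts, so the ranges overlapped. Endothelial markers gave 1 riser of 15, the TGF-beta co-receptor Eng (0.35, edgeR adjusted p = 0.0457), and cardiomyocyte markers 1 faller of 15, Myl2. Smooth muscle and pericyte markers gave 1 riser, Des (0.20), and 1 faller, Smtn (-0.26), of 14. Of 5 mesothelial and epicardial markers, the retinoic acid-making enzyme Aldh1a2 rose by 0.73 without overlap of the libraries (edgeR adjusted p = 0.0182). Beside these marker counts, the shares over all genes were 1.03% rising and 0.75% falling.

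Cell cycle genes had one of the highest list medians with few calls after adjustment. Of 42 tested, E2f1, a transcription factor of the G1 to S step, and Birc5 (survivin), which acts in cell division, rose by 0.93 and 1.13 (edgeR adjusted p = 0.0260 and 0.04996), and 0 fell. Over all genes 1.03% rose. Before adjustment, 25 of the 42 rose and 2 fell with an edgeR p under 0.05. Over all 15476 genes, 1405 rose and 1316 fell at that level. DESeq2 called 6 of the 42 as rising and 1 as falling, limma-voom 2 and 0. The list's median was 0.47, made of 0.12 on the Western and 0.76 on the control diet. Pbk, a mitotic kinase, had one of the largest rises and the same imbalance, with 0.46 on the Western and 2.04 on the control diet. It stood at 1.18, 1.01 and 0.771 CPM in Western diet postpartum hearts, against 0.687, 0.606 and 0.845 CPM in Western diet nonpregnant hearts, and at 2.11, 1.12 and 0.942 CPM in control diet postpartum hearts, against 0.536, 0.126 and 0.318 CPM in control diet nonpregnant hearts. On the Western diet the lowest postpartum library lay within the nonpregnant range, and on the control diet the groups were apart (log2 fold change 1.25, SE 0.29, edgeR adjusted p = 0.0457). Levels were low, and the 0.126 CPM of replicate 2 of the control diet nonpregnant group was near that library's limit of a count of 0 (0.123 CPM). The call of Pbk held in 2 of the 12 fits with 1 library left out. With 1 library left out, the list's count of risers was 16 without replicate 1 of the control diet nonpregnant group. It was 2 without replicate 2 of the Western diet postpartum group, and 0 or 1 without any of the other 10 libraries.

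**Figure D4:**
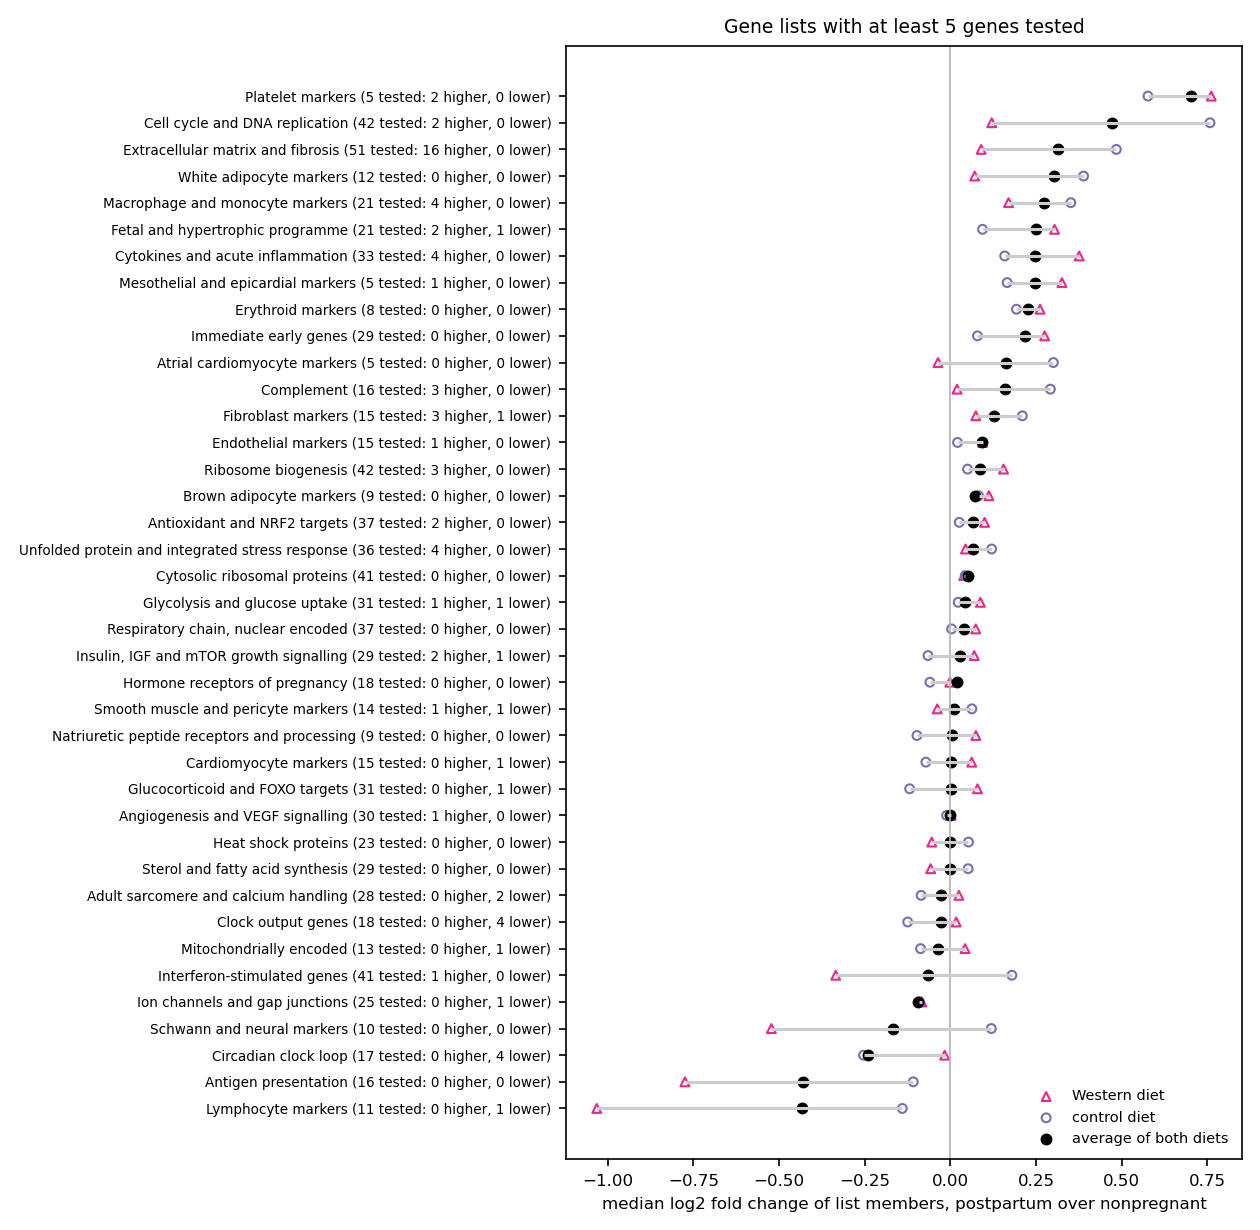
Median postpartum over nonpregnant log2 fold change (x axis) of the genes of lists with at least 5 tested members (2 such lists not shown), averaged over the diets (filled circles), on the Western diet (triangles) and on the control diet (open circles). Platelet, cell cycle and matrix lists lie furthest right and lymphocyte and antigen presentation lists furthest left, and the 2 diets lie furthest apart in the lymphocyte, antigen presentation, Schwann cell and cell cycle lists.

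In 14 of the 42 lists edgeR called no member, among them cytosolic ribosomal proteins (41 genes, median 0.05), heat shock proteins (23 genes), sterol and fatty acid synthesis (29 genes, median -0.0023), natriuretic peptide receptors and processing (9 genes) and hormone receptors of pregnancy (18 genes, median 0.02). Before adjustment, an edgeR p under 0.05 was reached by 2721 of all 15476 genes, and by 6, 2, 3, 2 and 5 genes of these lists. Of the list genes DESeq2 called 0, 1, 1, 0 and 0, and limma-voom called 0 in each list. Among receptors, Prlr, the prolactin receptor, had a log2 fold change of 0.02. Of 29 immediate early genes edgeR called 0, with a median of 0.22, while DESeq2 called 4 and limma-voom 0. Before adjustment, 12 of the 29 had an edgeR p under 0.05, beside the 2721 of 15476 over all genes. Among 30 angiogenesis genes Eng alone was called, and Vegfa had 0.08 (edgeR adjusted p = 0.676). Of 29 insulin, IGF and mTOR genes, Eif4ebp1, a brake on translation, and Akt1 rose by 0.27 and 0.23 and Grb14, an inhibitor of the insulin receptor, fell by 0.26, while Igf1 had 0.31 (edgeR adjusted p = 0.194). In the NRF2 list of 37 genes Hmox1 and Srxn1, both enzymes of the oxidative stress response, rose by 0.51 and 0.47. Risers ran from 0 to 4 with 1 library left out in the insulin, IGF and mTOR list and from 0 to 3 in the NRF2 list. Beside the counts of these lists, 1.03% rose and 0.75% fell over all genes.

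The average can hide a change that belongs to 1 diet. The difference of the postpartum effect between the diets was called by edgeR in 0 genes (smallest adjusted p = 0.0987), with 1390 genes under an unadjusted p of 0.05, and DESeq2 called 43 and limma-voom 0. Of the 276 genes, 79 had an unadjusted p under 0.05 for that difference, 47 with the larger change on the Western and 32 on the control diet. Serpinh1, the chaperone of collagen folding, was the only gene called in the average with opposite signs. It stood at 221, 198 and 188 CPM in Western diet postpartum hearts, against 223, 208 and 211 CPM in Western diet nonpregnant hearts. Its control diet postpartum levels were 249, 262 and 269 CPM, against 192, 183 and 185 CPM in control diet nonpregnant hearts. The groups overlapped on the Western diet and were far apart on the control diet, with log2 fold changes of -0.08 and 0.48 and an unadjusted p of 3.03e-05 for their difference (edgeR adjusted p = 0.234). Smtn, a smooth muscle protein, and Eif4ebp1 had their change almost wholly on the Western diet, with -0.49 against -0.02 and 0.50 against 0.03 on the control diet. Lgals4, a galectin picked after its values were seen, was the reverse, at -0.26 on the Western and -1.03 on the control diet.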

How the data were processed

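Gene counts of 12 heart libraries were analysed. The kits were Qiagen RNeasy for RNA and NEBNext Ultra RNA for libraries, per the labels' protocols. FastQC, STAR 2.5.2b, Subread 1.5.2 with its featureCounts, and GRCm38 (mm10) are the tools and build that the submitters' processing notes list for the authors' work. What was deposited is 1 whole-number read count for each gene and library, not normalized. How strand and multiply mapped reads were handled, and which annotation release was used, is not given in the sources used here. Overlapping genes and close copies may therefore share counts. Reads carry no molecular identifiers, so the limit on a count of 0 (3 counts) covers counting error only.

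Groups came from the sample titles. The filter on low counts was filterByExpr, run by group with a minimum count of 10 and a minimum total of 15, and 15476 of 49315 genes passed. Libraries were scaled by TMM, which the CPM values use. All libraries were fitted with edgeR 4.0.16 (R 4.3.3), with 1 mean per group. The averaged effect, the effect on each diet and their difference were tested with the two-sided quasi-likelihood F test, adjusted by Benjamini-Hochberg over all genes at 0.05. Presence on both diets used the larger of the p-values of the 2 diets. Genes of opposite signs on the 2 diets could not be called by it but stayed in the adjustment. Symbols were matched to the deposited Ensembl gene identifiers through a reference table of names, which left 345 of 49315 unmatched. The procedure was tested on simulated data. DESeq2 1.42.0, limma-voom (limma 3.58.1), other scalings, filters and models, and libraries left out singly or in sets of 2 and 3 were the alternatives.

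The comparison and the 42 gene lists were chosen with earlier results of these data known. The genes named are, in each direction, the 15 of smallest p that were called, had the same sign on both diets, reached a mean of 1 CPM in a pregnancy state and had a symbol that is no predicted or clone name, the 5 largest changes in each direction by the same conditions, up to 4 called members of each list, a gene of opposite signs, the 3 called genes with the smallest p for the difference, and 20 genes followed whatever their result. Of this set 1 gene is not reported here, members that added nothing to a group are left out, and genes named outside this rule are said to be picked after their values were seen.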

Additional observations from a re-analysis of the deposited data

How the results depend on the processing

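All 276 calls of the averaged effect kept their direction in each of the 22 alternatives in which they were tested, while the number called moved. It was 271 with DESeq2's size factors, 279 with a filter of 1 CPM, 275 with edgeR's robust option, 264 without mitochondrial genes in the library sizes and 284 with limma-voom. DESeq2 called 615 (379 higher, 236 lower) and an additive model of pregnancy state and diet 181 (97 higher). With no filter on low counts 1262 were called (737 higher, 525 lower), with 87 on both diets, 506 for the difference between diets, 933 on the Western and 744 on the control diet, and the cause was not tested. DESeq2 gave 2 genes on both diets, 43 for the difference, 361 on the Western and 184 on the control diet, and the robust option gave 1 for the difference.

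With 1 library left out, the averaged count ran from 52 to 567 (31 to 331 higher, 21 to 236 lower), that for both diets stayed at 0, that for the difference ran from 0 to 53, that for the Western diet from 0 to 472 and that for the control diet from 0 to 205. The averaged count was 52, 567 and 149 without replicates 1, 2 and 3 of the Western diet postpartum group, and 174, 217 and 93 without those of the control diet postpartum group. It was 151, 98 and 102 without replicates 1, 2 and 3 of the Western diet nonpregnant group, and 488, 72 and 82 without those of the control diet nonpregnant group. Without replicate 3 of the control diet postpartum and replicate 1 of the control diet nonpregnant group together it was 293, of which 172 were among the 276, with 1 gene for the difference and 74 on the control diet. Without replicate 2 of the Western diet postpartum group as well it was 744 (438 higher, 306 lower), with 170 for the difference, 823 on the Western and 129 on the control diet.

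Of the 100 named genes that were called, 36 stayed called with any 1 library left out. The values that changed sign were those of genes near 0 that were not called: with 1 library left out, Myh6 ran from -0.0105 to 0.0275, Prlr from -0.10 to 0.10 and Slc2a1, a glucose transporter, from -0.0365 to 0.0651. Without the pair of libraries above, Prlr was -0.02 and Slc2a1 -0.0019, and without the set of 3 Prlr was -0.15. No paired analysis was possible because the replicate numbers were given in accession order and the labels carry no number shared between groups.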
